A study of Danio rerio with 10 samples.

Results

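Major histocompatibility complex (MHC) class II molecules present peptides from endosomes to CD4 T cells, and in vertebrates they are made mainly by macrophages, dendritic cells and B cells. Each molecule pairs an alpha and a beta chain. The invariant chain, CD74, fills their peptide groove during assembly, guides them to endosomes and is then cut away by cathepsins. In mammals CD74 at the cell surface is also a receptor for the cytokine MIF. In the testis, class II is known mainly from the macrophages of the interstitium.

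The 4 genes described here are the invariant chain genes cd74a (ENSDARG00000009087) and cd74b (ENSDARG00000036628) and the class II chain genes mhc2dab (ENSDARG00000079105, a beta chain) and mhc2daa (ENSDARG00000031745, an alpha chain), out of 33737 Ensembl genes in the count tables. They were selected on their difference between Amh and control libraries of the same replicate number, so that difference is given below as a description, with no p-value. They are included where called genes are counted over the whole table, and nothing about them is read from those counts. All 4 are among the 19420 genes that passed the filter on low counts. The tissue was testis of wild-type adults, incubated for 3 days. The Amh group (5 libraries) received Amh, anti-Müllerian hormone, a Sertoli cell ligand of the TGF-beta family, together with 11KT, 11-ketotestosterone, the main androgen of male fish. The control group (5 libraries) received 11KT alone, so both groups carry the androgen. The series sets Amh against the growth factor Igf3 in spermatogonial differentiation.

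Libraries are numbered 1 to 5 in each group, and libraries of the same number varied together, so ratios are given within a number. What a number stands for is not stated in the labels. Totals were 10974579 to 15448069 counts in Amh libraries and 8455226 to 11934679 in control libraries, and the Amh library of each number was 1.199 to 1.298 times as deep as its control. Expression levels are in CPM, for which each count was divided by the TMM-adjusted size of its library, and 3 counts, the ceiling for a gene read 0 times, stood for 0.180 to 0.351 CPM. Limits and intervals of this kind cover counting error only. All 14 genes matched to a list of testis cell markers had reads, with a summed level of 3674 to 4845 CPM in Amh and 3497 to 4717 CPM in control libraries. Of that list's 14 search terms 13 matched, and SOX9 stands for more than 1 gene. The libraries numbered 3 stand apart in the class II chain genes, as described below, and fold changes are therefore also given without them.

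All 4 genes were lower with Amh in 5 of 5 pairs. Of 19420 genes tested, 989 were lower in all 5 pairs, which is 5.09%. Since the pair differences chose the members, nothing is read from their count. In tissue libraries, fewer cells of a type and less RNA per cell cannot be told apart.

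Among the invariant chain genes, cd74a stood at 41.4, 41.8, 62.7, 97.8 and 66.2 CPM in Amh libraries 1 to 5, against 63.2, 72.4, 75.4, 162 and 106 CPM in control libraries 1 to 5. The groups overlapped, but each Amh library lay below the control library of its number, and both groups had their highest level in number 4 and their lowest in number 1. The ratio of Amh to control was 0.655, 0.578, 0.831, 0.604 and 0.623 in pairs 1 to 5, so pair 3 differed least, at 16.9% lower, and pair 2 most, at 42.2% lower. Its mean was 62.0 ± 23.1 CPM in Amh and 95.9 ± 40.3 CPM in control libraries (SD, n = 5 each). The fitted log2 fold change was -0.62 ± 0.0831 (SE) with the replicate number as a block, and -0.70 without the libraries numbered 3.

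The paralogue cd74b stood at 114, 63.7, 123, 104 and 125 CPM in Amh libraries 1 to 5, against 121.5, 93.5, 129, 149.9 and 185 CPM in control libraries 1 to 5. Its mean was 106 ± 24.9 CPM in Amh and 136 ± 34.2 CPM in control libraries (SD, n = 5 each), and the groups overlapped. The pairs fell into a small and a larger difference: the ratio was 0.939 in pair 1 and 0.949 in pair 3, but 0.682, 0.696 and 0.674 in pairs 2, 4 and 5. In pairs 1 and 3 the 95% counting interval of the ratio held 1 (0.874 to 1.01 and 0.878 to 1.03). The blocked log2 fold change was -0.36 ± 0.0884 (SE), the smallest in size of the 4 genes, and -0.43 without number 3.

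**Figure D1:**
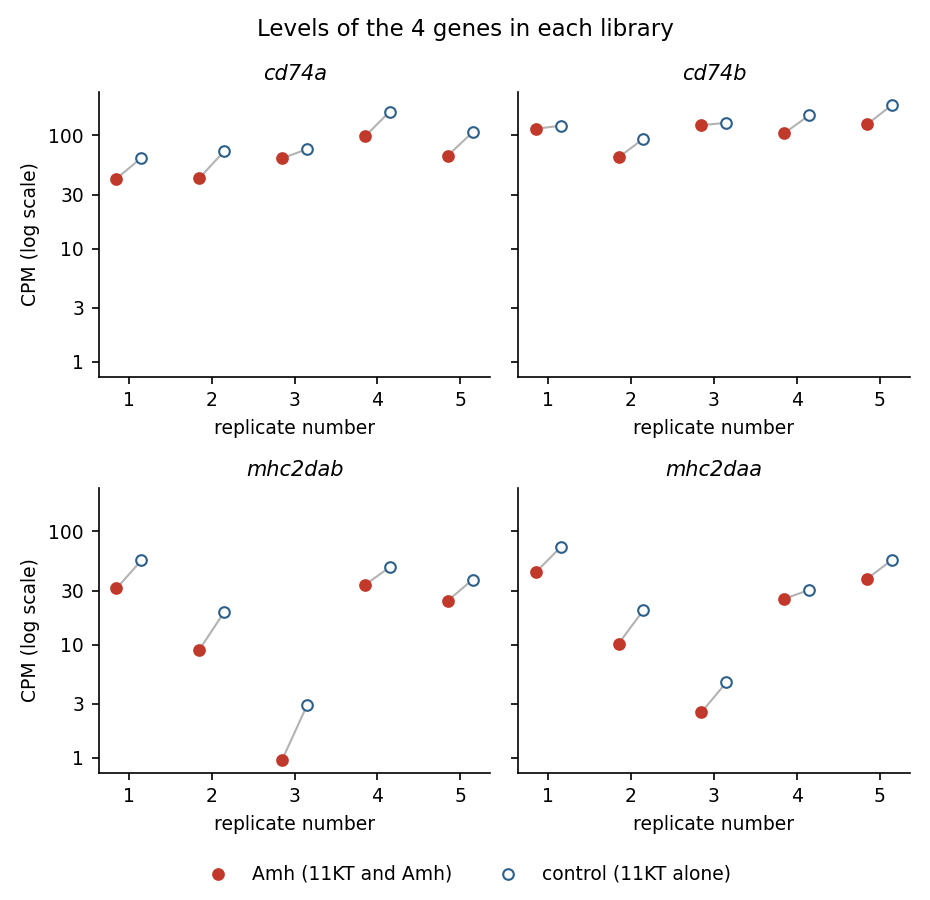
Levels in CPM (log axis) of cd74a, cd74b, mhc2dab and mhc2daa in the 10 libraries, by replicate number, with Amh as filled and control as open points and a line joining the libraries of a number. The Amh point lies below the control point in every pair, and mhc2dab and mhc2daa drop to 0.961 to 4.63 CPM in number 3.

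Of the class II chain genes, mhc2dab stood at 31.3, 9.01, 0.961, 33.7 and 24.4 CPM in Amh libraries 1 to 5, against 55.3, 19.3, 2.91, 48.2 and 37.4 CPM in control libraries 1 to 5. Number 3 was lowest in both groups, with 11 reads in the Amh library and 27 in the control library, and number 2 came next. The ratio of Amh to control was 0.566, 0.466, 0.330, 0.699 and 0.652 in pairs 1 to 5. Its mean was 19.9 ± 14.3 CPM in Amh and 32.6 ± 21.5 CPM in control libraries (SD, n = 5 each). The lowest ratio, in pair 3, rests on those few reads and has a 95% counting interval of 0.148 to 0.688. The blocked log2 fold change was -0.78 ± 0.116 (SE), and -0.74 without number 3.

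Its partner mhc2daa stood at 43.5, 10.2, 2.53, 25.4 and 38.1 CPM in Amh libraries 1 to 5, against 72.4, 20.1, 4.63, 30.4 and 55.9 CPM in control libraries 1 to 5. Both groups had the same order of numbers, from number 1 as the highest through 5, 4 and 2 to number 3. The mean was 23.9 ± 17.5 CPM in Amh and 36.7 ± 27.3 CPM in control libraries (SD, n = 5 each), a spread that exceeds the difference between the groups. The ratio within pairs was 0.601, 0.507, 0.547, 0.836 and 0.682 in pairs 1 to 5, with a counting interval of 0.329 to 0.897 in pair 3 and of 0.714 to 0.981 in pair 4. The blocked log2 fold change was -0.63 ± 0.108 (SE), and -0.61 without number 3.

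**Figure D2:**
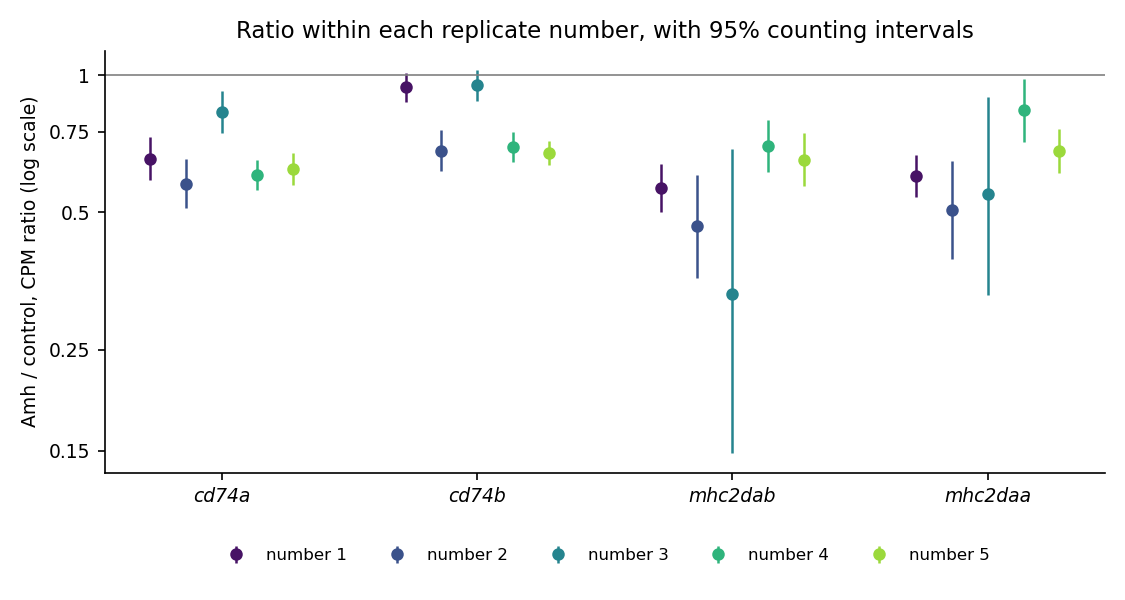
Ratio of Amh to control CPM (log axis) within replicate numbers 1 to 5 for each gene, with bars for the exact 95% counting interval; the grey line marks a ratio of 1. All 20 points lie below 1, and the bars of cd74b in numbers 1 and 3 reach across the line.

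With the replicate block, 4 of 19420 genes passed (0.0206%, edgeR quasi-likelihood test, Benjamini-Hochberg adjusted p under 0.05), a count that includes some of the members. With group as the only term 0 genes passed (0%), with 131 at an unadjusted p under 0.05, and DESeq2 and limma-voom also called 0. The choice of members used this contrast, so these counts describe how they were chosen. In the unblocked fit the log2 fold changes were -0.63 ± 0.294 for cd74a, -0.36 ± 0.210 for cd74b, -0.71 ± 0.750 for mhc2dab and -0.61 ± 0.70 for mhc2daa (SE, n = 5 per group). The values of cd74a and cd74b turn to 0.75 ± 0.579 and 1.27 ± 0.578 (SE) when library size joins the block as a covariate, in a fit where depth and group cannot be told apart within pairs. Thinned to 1 depth, the blocked values were -0.64, -0.37, -0.79 and -0.64 for cd74a, cd74b, mhc2dab and mhc2daa.

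The 4 genes differed in how far they varied between replicate numbers. The number accounted for 67.9% and 69.5% of the variance of log2 CPM of cd74a and cd74b, and the group for 29.4% and 21.8%. For mhc2dab and mhc2daa the number accounted for 92.6% and 94.2%, and the group for 6.52% and 5.12%. The median share of the number over all tested genes was 77.2%. The members were chosen for their group difference, which takes from the number's share, so nothing is read from a comparison with that median. Taking the mean level of each number, mhc2dab varied 22.4-fold and mhc2daa 16.2-fold between the highest number and the lowest, against 2.48-fold for cd74a and 1.97-fold for cd74b. The median gene varied 1.75-fold, and 0.963% and 1.205% of tested genes varied as much as mhc2dab and mhc2daa or more.

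Neither invariant chain gene had its lowest level in number 3. The summed level of mhc2dab and mhc2daa over that of cd74a and cd74b was 0.0189 in Amh library 3 and 0.0369 in control library 3. In the other numbers it was 0.182 to 0.481 in Amh and 0.238 to 0.691 in control libraries. This ratio was lower with Amh in pairs 1, 2 and 3 and higher in pairs 4 and 5. CPM are not scaled to transcript length, so each ratio is compared between libraries and not read as a proportion of molecules.

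Within each pair of paralogues or partners, the balance also shifted with the number. The level of cd74a over that of cd74b was 0.363, 0.657, 0.511, 0.938 and 0.531 in Amh libraries 1 to 5, against 0.520, 0.774, 0.584, 1.08 and 0.574 in control libraries 1 to 5. It was lower with Amh in 5 of 5 pairs, and highest in number 4 in both groups. The level of mhc2dab over that of mhc2daa was 0.720, 0.883, 0.379, 1.33 and 0.641 in Amh libraries 1 to 5, against 0.765, 0.959, 0.628, 1.59 and 0.670 in control libraries 1 to 5. It too was lower with Amh in 5 of 5 pairs and highest in number 4. Both balances are computed from the levels whose pair differences chose the members, so nothing is read from these pair counts.

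Over the 10 libraries, which are 5 pairs and not 10 independent samples, log2 levels of mhc2dab and mhc2daa followed each other closely, at a Pearson r of 0.96 and a Spearman rho of 0.87 (r 0.85 without number 3). For cd74a and cd74b r was 0.64 and rho 0.59 (r 0.66 without number 3). Between an invariant chain gene and a class II chain gene r was 0.18 to 0.31 and rho 0.10 to 0.41. Without number 3 it was 0.81 and 0.80 for cd74b with mhc2dab and mhc2daa, and 0.57 and 0.21 for cd74a with the same genes. These values describe the libraries, and the correlation was itself part of how the genes were chosen.

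**Figure D3:**
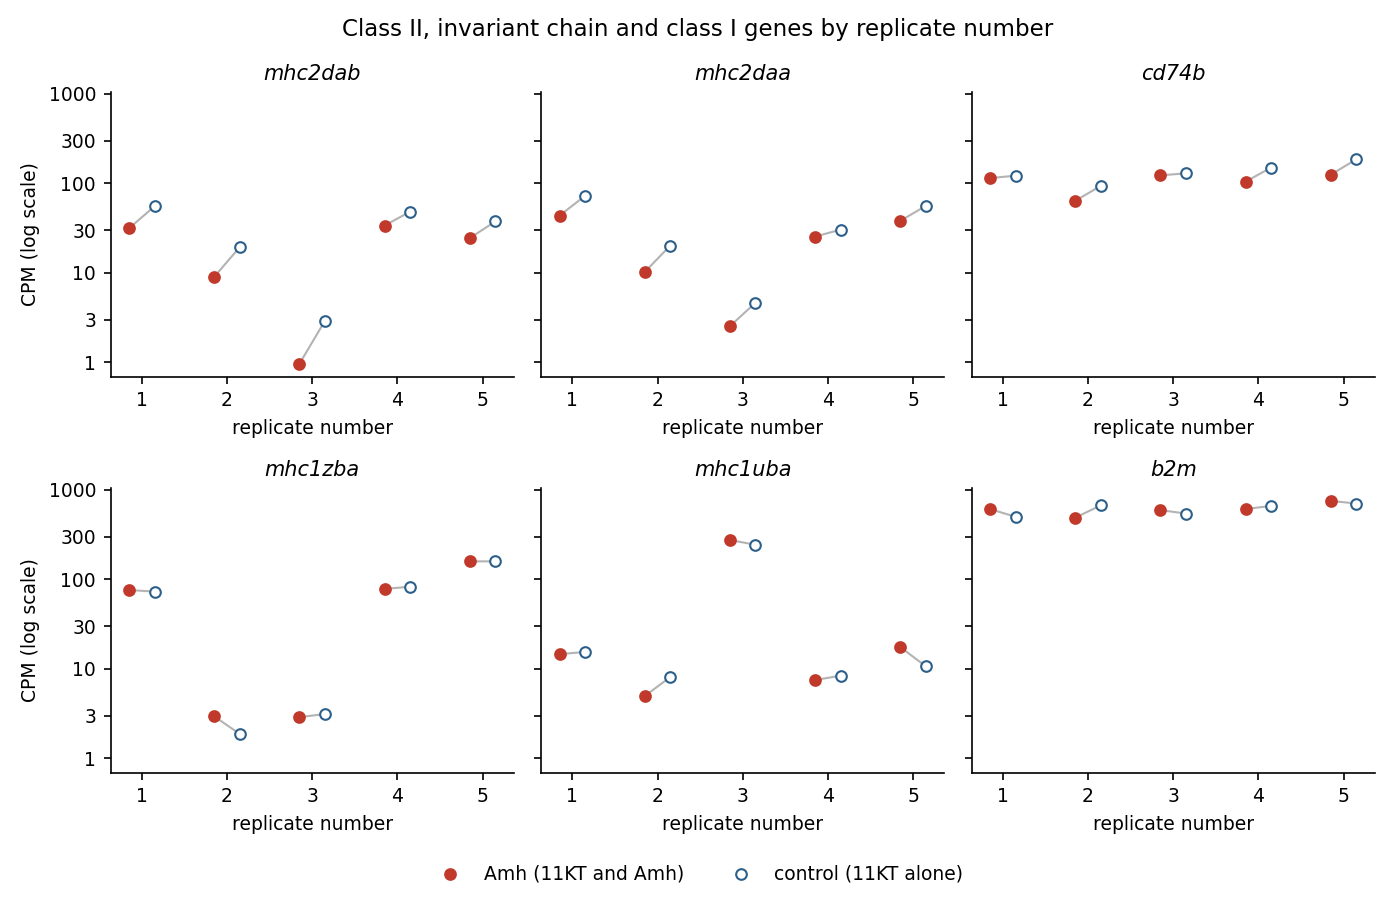
Levels in CPM (log axis) of the class II chain genes mhc2dab and mhc2daa, the invariant chain gene cd74b, the class I heavy chain genes mhc1zba and mhc1uba and the class I light chain gene b2m, by replicate number (filled, Amh; open, control). In number 3 mhc2dab, mhc2daa and mhc1zba are low and mhc1uba is high in both groups, while b2m stays between 487 and 749 CPM in all 10 libraries.

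Of 8 further class II chain genes with a symbol, none passed the filter on low counts. None had more than 17 reads in any library, and mhc2d8.37a1 and mhc2dcb had 0 in all 10. Their summed level was 1.01 to 1.70 CPM in Amh and 0.715 to 3.28 CPM in control libraries. mhc2d8.37a2 had 12 reads in Amh library 3 and 13 in control library 3, against 0 to 5 in the other 8 libraries, and mhc2dbb had 11 in Amh library 2 and 17 in control library 2, against 1 to 9 elsewhere. Both were chosen for mention with their values known.

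Some class I heavy chains present peptides from the cytosol. Class I heavy chain genes differed widely in how far they varied between numbers. Of 12 with at least 100 reads, mhc1zba varied 65.8-fold and mhc1uba 39.6-fold between the highest number and the lowest, mhc1zfa 17.0-fold and mhc1zja 12.9-fold, and the other 8 between 1.14-fold and 4.21-fold. The gene mhc1uba stood at 274 CPM in Amh library 3 and 243 CPM in control library 3, against 4.97 to 17.4 CPM in the other Amh libraries and 8.08 to 15.4 CPM in the other control libraries. mhc1zba stood at 2.94 and 2.88 CPM in Amh libraries 2 and 3 and at 1.87 and 3.12 CPM in control libraries 2 and 3, against 72.8 to 159 CPM in the other 6. Between the groups, blocked log2 fold changes were 0.02 ± 0.0918 for mhc1zba and 0.08 ± 0.134 for mhc1uba (SE, adjusted p = 0.985 and 0.905, edgeR), and both were lower with Amh in 3 of 5 pairs. These class I genes were also chosen with values known. The light chain gene b2m varied 1.31-fold between numbers. Genes of a family can share reads in counting, and how such reads were counted is not stated in the labels.

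Genes that switch on class II expression or process its cargo had a median log2 fold change near 0, and 1 cathepsin gene rose in the blocked fit. Of 21 tested genes of this list, 1 rose and 0 fell with the replicate block, and 0 passed in the unblocked fit (edgeR, adjusted over all genes). Counted by an unadjusted p under 0.05 in the blocked fit, 3 were higher and 0 lower. Over all genes 3.84% were higher and 4.88% lower by that measure, the shares to set beside the counts of each list below. The list's median log2 fold change was 0.04, against -0.01 over all genes (blocked fit).

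The class II transactivator gene ciita, which in mammals sets class II transcription, averaged 7.65 CPM in Amh and 7.86 CPM in control libraries, with a blocked log2 fold change of -0.04 and a lower level with Amh in 3 of 5 pairs. In the same fit rfx5, RFXAP and RFXANK, subunits of the factor that binds the X box of class II promoters, stood at 0.04, 0.10 and 0.02. Of the subunits of the factor on the Y box, NFYB and nfybb both stood at 0.04, 2 NFYA genes at 0.08 and 0.11, and NFYC at 0.38 ± 0.183 (log2, SE, blocked), with NFYC higher in 5 of 5 pairs at adjusted p = 0.581. The gene that rose was ctsla, a lysosomal cathepsin L, at 794 ± 161 CPM in Amh and 574 ± 140 CPM in control libraries (SD, n = 5 each). It was higher in 5 of 5 pairs, at a blocked log2 fold change of 0.48 ± 0.0723 (SE) and an adjusted p of 0.0414 (edgeR). It lost this call when number 1, 3, 4 or 5 was left out, or when library size was a covariate. Of other proteases, ctss2.1, a cathepsin S gene, stood at 0.41 ± 0.121, CTSD, cathepsin D, at 0.07 ± 0.0749, and LGMN, legumain, at 0.02 ± 0.0796 (log2, SE, blocked), with adjusted p = 0.371, 0.846 and 0.966.

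Known partners of CD74 gave no call among 6 tested genes, with 0 also at an unadjusted p under 0.05 in the blocked fit (median log2 fold change 0.02). MIF, the cytokine that binds CD74 in mammals, averaged 71.9 ± 9.92 CPM in Amh and 74.1 ± 10.7 CPM in control libraries, and its relative ddt 41.5 ± 7.93 CPM in Amh and 39.8 ± 10.3 CPM in control libraries (SD, n = 5 each). cd44b, a gene of the CD44 co-receptor, was scarce at 1.22 ± 0.686 CPM in Amh and 1.85 ± 0.428 CPM in control libraries. It was lower with Amh in 3 of 5 pairs. Its paralogue cd44a, which did not pass the filter on low counts, had 52 reads in all. cd44a averaged 0.635 CPM in Amh and 0.197 CPM in control libraries and was higher with Amh in 5 of 5 pairs.

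Genes of class I and peptide loading also gave no call among 28 tested (median 0.02). By an unadjusted p under 0.05 in the blocked fit, 2 were higher and 1 was lower. The light chain genes b2m and b2ml stood at -0.01 ± 0.0936 and 0.02 ± 0.0691 and the chaperone gene CANX at 0.23 ± 0.0728 (log2, SE, blocked), with CANX higher in 5 of 5 pairs and at adjusted p = 0.403. tap2a, a subunit of the peptide transporter, stood at -0.32 ± 0.122 and ranged from 6.25 to 52.7 CPM, with 95.9% of its variance between numbers.

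Interferon gamma, the main inducer of class II in mammals, left few reads: ifng1 had 14 in all 10 libraries together, at a mean of 0.150 CPM in Amh and 0.0610 CPM in control libraries. Of 23 tested genes of the interferon list none was called (median 0.02), and by an unadjusted p under 0.05 in the blocked fit 1 was higher and 3 were lower. IRF7, a transcription factor of the interferon response, stood at -0.27 ± 0.0871 (log2, SE, blocked), with adjusted p = 0.40 (edgeR). The signalling genes JAK1 and stat2 stood at 0.09 ± 0.0695 and -0.10 ± 0.0879.

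**Figure D4:**
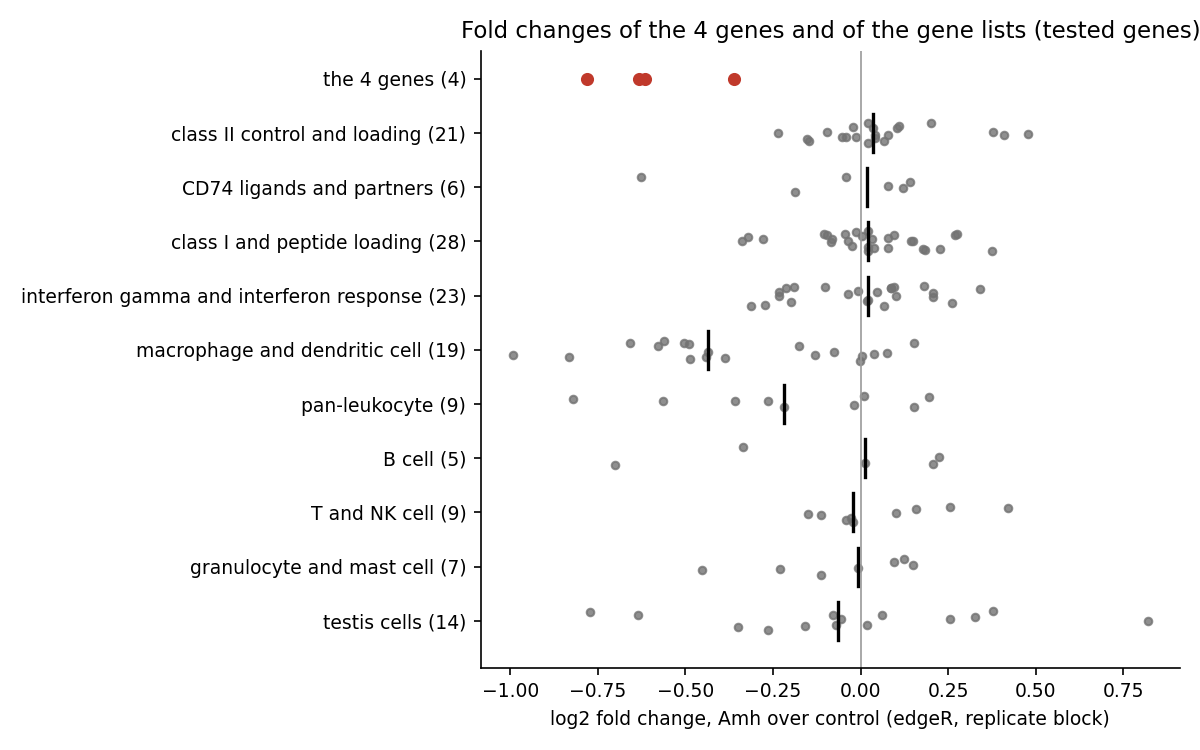
Blocked log2 fold changes of Amh over control for the 4 genes (red) and for each tested gene of 10 lists (grey; tested genes in brackets), with a black bar at each list's median. The 4 genes lie between -0.78 and -0.36; of the list medians the macrophage and dendritic cell list is lowest at -0.43, followed by the pan-leukocyte list at -0.22.

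Markers of macrophages, which carry class II, lay in part below their control level too. Of 19 tested macrophage and dendritic cell genes none was called, the median blocked log2 fold change was -0.43 (-0.30 unblocked), and 15 lay below 0. By an unadjusted p under 0.05 in the blocked fit 5 were lower and 0 higher. Over all genes 4.88% were lower and 3.84% higher by that measure, and the median blocked log2 fold change was -0.01. The mean log2 ratio over the list was -0.83, -0.28, -0.0036, -0.11 and -0.49 in pairs 1 to 5. The mean lay closest to 0 in pair 3 and farthest from it in pair 1. The median was -0.19 without number 1 and -0.28 without number 5 in the blocked fit, and 0.76 with library size as a covariate. The list's summed level was 401 to 1076 CPM in Amh and 678 to 1457 CPM in control libraries, and it was lower with Amh in 3 of 5 pairs. apoeb, an apolipoprotein E gene, and cd68 make up most of that sum. Of the list's 34 search terms 25 matched a gene, so some macrophage markers are not covered. Of other markers that matched, csf1rb, a CSF1 receptor gene, averaged 0.309 CPM in Amh and 0.258 CPM in control libraries, and c1qc had 0 reads in all. The part of macrophage number in the levels of the 4 genes was not tested.

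IRF8, a transcription factor needed for macrophages in zebrafish, averaged 6.07 ± 2.48 CPM in Amh and 9.04 ± 3.19 CPM in control libraries (SD, n = 5 each). It was lower in 5 of 5 pairs, at a blocked log2 fold change of -0.58 ± 0.152 (SE, adjusted p = 0.309, edgeR). The gene c1qa, a complement subunit, stood at -0.83 ± 0.293 and was also lower in 5 of 5 pairs (adjusted p = 0.439, edgeR). Its level was low, at means of 1.22 CPM in Amh and 2.19 CPM in control libraries. apoeb stood at -0.50 ± 0.229 and was lower in 3 of 5 pairs (adjusted p = 0.561, edgeR). cd68, a lysosomal glycoprotein of macrophages, stood at 0.07 ± 0.0786, and SLC7A7 at 0.0029 ± 0.162 (log2, SE, blocked).

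Of 9 pan-leukocyte genes none was called (1 higher and 2 lower by unadjusted p) and the median was -0.22, with a mean log2 ratio of -0.42, -0.012, 0.16, -0.31 and -0.44 in pairs 1 to 5. That median was -0.12 without number 2 and -0.037 without number 5, -0.098 after thinning to 1 depth, 0.0084 with exact symbols and 0.73 with library size as a covariate. Of its members, ptprc, the leukocyte phosphatase CD45, stood at -0.56 ± 0.187 and CORO1A, an actin regulator of leukocytes, at -0.26 ± 0.083, each lower in 5 of 5 pairs. rac2, a leukocyte GTPase, stood at 0.20 ± 0.0861 (log2, SE, blocked). The list's summed level was 138 to 193 CPM in Amh and 142 to 193 CPM in control libraries.

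B cells left little RNA. ighm, the IgM heavy chain, averaged 0.156 CPM in Amh and 0.355 CPM in control libraries, and cd79a, a chain of the B cell receptor, 0.119 CPM in Amh and 0.0969 CPM in control libraries. Of 14 matched B cell genes 5 were tested and none was called (median 0.01, summed level 15.03 to 19.96 CPM in Amh and 13.6 to 23.0 CPM in control libraries). blnk, an adaptor of B cell receptor signalling, stood at -0.70 ± 0.294 and cd22 at -0.33 ± 0.188, while BTK, a kinase of the same pathway and the tested gene of the highest level, stood at 0.22 ± 0.194. The other 2 tested genes, igl1c3 and igl4v8, stood at 0.21 ± 0.407 and 0.013 ± 0.318 (log2, SE, blocked). T and NK cell genes (9 tested, summed level 77.6 to 115 CPM in Amh and 69.3 to 119 CPM in control libraries) had a median of -0.02 and granulocyte genes (7 tested, 887 to 1412 CPM in Amh and 960 to 1450 CPM in control libraries) one of -0.01, with no call in either. By unadjusted p, 1 T and NK cell gene was higher, 1 B cell gene lower and 0 granulocyte genes either. ZAP70, a T cell receptor kinase, stood at 0.42 ± 0.152 and was higher in 5 of 5 pairs (log2, SE, blocked; adjusted p = 0.448), the direction opposite to that of the 4 genes. TOX, RUNX3 and GATA3, transcription factors of T cells, stood at 0.26, -0.03 and -0.02. RUNX3 and GATA3 make up most of the summed level of the T and NK cell list. The T cell co-receptor gene cd4-1 averaged 1.56 CPM in Amh and 1.70 CPM in control libraries. For cd8a the means were 0.251 CPM in Amh and 0.144 CPM in control libraries. Only 12 of the T and NK cell list's 20 search terms matched a gene. Of the granulocyte genes, lyz, a lysozyme, stood at -0.45 ± 0.287 and was lower in 5 of 5 pairs. It was scarce, with 212 reads in all. srgn, MMP9 and cfl1l stood at -0.11, 0.15 and 0.09. These 3 genes make up most of the granulocyte list's summed level, and srgn alone averaged 776 CPM in Amh and 839 CPM in control libraries. That sum is therefore not read as a level of granulocytes. Of the granulocyte list's 13 search terms 8 matched a gene.

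The 14 genes of the testis cell list had a median of -0.06 with no call in edgeR. By unadjusted p in the blocked fit, 3 were higher and 3 lower. STAR, which brings cholesterol into mitochondria for steroid synthesis, stood at -0.64 ± 0.139, and cyp11c1, the enzyme that makes 11-oxygenated androgens in fish, at -0.77 ± 0.171, each lower in 4 of 5 pairs at adjusted p = 0.232 (edgeR). In the other direction, inha, the inhibin alpha subunit, stood at 0.82 ± 0.196, gsdf, a Sertoli cell ligand of the TGF-beta family in fish, at 0.33 ± 0.0934 and amh itself at 0.26 ± 0.117 (log2, SE, blocked), with adjusted p = 0.287, 0.367 and 0.565. The germ cell genes DDX4 and PIWIL1 stood at -0.07 and -0.06.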

How the data were processed

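The values deposited by the authors are counts, raw whole-number read counts per Ensembl gene, 1 file per library. Per the labels' protocols, 2 µg of RNA went into each TruSeq library. Tools listed in the submitters' processing notes include TopHat2 (2.0.5) and HTSeq, beside SAMtools (0.1.18), FastQC (0.10.1) and DESeq, with the Zv9 build. The annotation release, counting mode and strand setting were not given in the sources used here.

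Genes were filtered with filterByExpr (19420 kept), scaled by TMM and fitted across all genes with edgeR 4.0.16 (quasi-likelihood, Benjamini-Hochberg, threshold 0.05) in R 4.3.3, with group only and with the replicate number as a block. Standard errors were obtained as |log2 fold change| / √F, so they come from the fitted model and are not the spread over the pairs. For mhc2dab the log2 ratios within pairs had a mean of -0.93 and an SD of 0.435. For the 4 members these standard errors are a description and not a test. Log2 levels use a prior count of 2. Alternatives used DESeq2 1.42.0 and limma 3.58.1 (voom). Ratio intervals are exact binomial (95%). The code was tested on simulated data.

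As a pairing check, each library's deviations from its group mean were correlated across groups: r was 0.490 to 0.784 where the numbers matched and -0.338 to 0.130 where they did not, so numbers were taken to pair the libraries. The series text calls the samples biological replicates, without saying whether each is a separate animal.

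The members, lists and tests were chosen with earlier results of these data known. Named genes are the members, of each list the 3 tested genes with the highest level and the 2 with the smallest blocked p, and the 10 genes whose log2 level follows the members most closely; ciita, rfx5, RFXAP, RFXANK, NFYA, NFYB, nfybb, NFYC, inha, amh, igl1c3, igl4v8, ifng1, csf1rb, c1qc, ighm and cd79a, and the chain and proteasome genes so marked, were added after their values were seen. Lists were matched by symbol, in another case or without the paralogue letter where needed (21939 of 33737 genes have a symbol). No sequences or gene coordinates were used here, so the planned promoter description was not made. Some genes that the rule names are not reported here.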

Additional observations from a re-analysis of the deposited data

Results flagged for a closer look

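In 3 of 36 sets of 5 values checked, 1 value lay apart from the other 4 by Dixon's ratio at its critical value of 0.71. The sets were the members' pair ratios, and log2 levels by group of the members and of class I genes. These class I genes had at least 100 reads and passed the filter on low counts. Those that did not pass it, mhc1zja among them, were not checked. Chance alone flags about 1 set in 20. In the Amh group cd74b was lowest in library 2, at 63.7 CPM, against 104 to 125 CPM in the other Amh libraries; in the control group library 2 was also the lowest, at 93.5 CPM. In the Amh group the class I gene mhc1laa was lowest in library 3, at 3.23 CPM, against 5.15 to 5.55 CPM in the others. In the control group mhc1uba was highest in library 3, at 243 CPM, against 8.08 to 15.4 CPM in the others, and the Amh library of that number held 274 CPM.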

How the results depend on the processing

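Over 28 alternatives mhc2dab and mhc2daa stayed below 0 in all, at -1.97 to -0.41 and -1.002 to -0.21, and cd74a and cd74b in 27. The exception is the block with library size as a covariate, at 0.75 and 1.27. That fit also gave the lowest values of mhc2dab and mhc2daa, at -1.97 ± 1.32 and -1.002 ± 1.13 (SE). In it depth and group cannot be told apart within pairs. All alternatives refit the contrast that chose the members, so nothing is read from how many stayed below 0. Leaving out 1 library (unblocked) gave -0.85 to -0.35 for cd74a, -0.47 to -0.22 for cd74b, -1.01 to -0.41 for mhc2dab and -0.94 to -0.21 for mhc2daa, where the value nearest 0 came without control 4, control 5, Amh 3 and control 1 in that order of genes. Leaving out 1 number (replicate block) gave -0.70 to -0.58, -0.43 to -0.31, -0.88 to -0.69 and -0.75 to -0.55.

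Unblocked fits called 0 genes in edgeR (131 at an unadjusted p under 0.05), DESeq2 (162) and limma-voom (136). With the replicate block edgeR called 4 genes, also after thinning to 1 depth, 3 with RLE or upper-quartile scaling and 113 when no low-count filter was set. Adding library size to the block left 0 (799 at an unadjusted p under 0.05). DESeq2 called 25 with the block and limma-voom 8. Without 1 number the count was 0 to 229, with 229 without number 2, 1 without number 1 (STAR) or number 3 (a member), and 0 without number 4 (1439) or 5 (1221).

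With the block, ctsla was the 1 call of the class II control and loading list under both scalings, thinning, DESeq2, limma-voom and exact symbols. Without the filter that list gave 2 calls (ctsla and ctss2.1), macrophage genes 3 (marco, SPI1 and apoeb) and testis genes 4 (gsdf, inha, STAR and cyp11c1), and DESeq2 gave testis genes 2 (STAR and cyp11c1). Without 1 number these lists gave 0 to 2, 0 to 1 and 0 to 4 calls, and class I genes 0 to 1 (CANX). The other lists gave 0 throughout. Without 1 number the macrophage median was -0.53 to -0.19 and the pan-leukocyte median -0.32 to -0.037. Causes were not tested.

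Low counts limit mhc2dab and mhc2daa in number 3, where 11 and 29 reads (Amh) stand against 27 and 43 (control). These libraries held 11972996 (Amh) and 9988357 (control) counts in all, within the range of the other libraries of their group.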

Other observations

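The 10 genes whose log2 level over the 10 libraries was most like the mean of the 4 standardised members were taken from 17115 genes whose average log2 CPM reached 1, of which 133 had a Pearson r above 0.8. With that mean the members themselves had an r of 0.70 (cd74a), 0.70 (cd74b), 0.82 (mhc2dab) and 0.80 (mhc2daa), so it blends unlike patterns. None of the 10 genes was on a list of immune or testis genes. The closest was TSHB (ENSDARG00000033726, r = 0.95), named in the table after the thyrotropin beta subunit, at 19.3 CPM in Amh and 24.3 CPM in control libraries and lower with Amh in 5 of 5 pairs. OPN4 (r = 0.94), MANEA (r = 0.92), CP, the copper carrier ceruloplasmin (r = 0.91), and zgc:66455 (r = 0.89) were also lower in 5 of 5 pairs. fdx1b (r = 0.92), a ferredoxin of steroid synthesis in zebrafish, was lower in 3 of 5. FLI1 (r = 0.90), ENSDARG00000089592 (r = 0.91), si:ch211-239j9.1 (r = 0.90) and zgc:136971 (r = 0.90) were lower in 4 of 5. The libraries form 5 pairs, so these correlations describe a shared order of the numbers, together with the members' own difference between the groups. The members were chosen on that difference, so the pair counts of these genes follow in part from the pick, and nothing is read from them. Over all tested genes 5.09% were lower in 5 of 5 pairs. The 10 genes were picked as the highest of many.

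Some other genes of class I presentation followed the number closely. psmb13a, a proteasome subunit gene, ranged from 17.8 to 68.7 CPM with 99.5% of its variance between numbers, and psmb12 from 13.9 to 41.0 CPM with 95.1%. mhc1zfa stood at 13.9 CPM in Amh library 3 and 14.01 CPM in control library 3, against 0.842 to 3.27 CPM in the other Amh libraries and 0.795 to 4.45 CPM in the other control libraries. mhc1zea differed 1.14-fold between numbers. These genes were named after their values were seen.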
